A study of Mus musculus with 10 samples.

Results

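The Rcor2 peaks are 6995 stretches of the mouse genome at which chromatin precipitated with an antibody to Rcor2 was called above chromatin precipitated with control IgG. All 6995 peaks of the deposited peak table were taken, and the heights in 4 of the series' 10 libraries were compared at them: 2 Rcor2 and 2 IgG ChIP-seq libraries (chromatin immunoprecipitation followed by sequencing). These 4 libraries and 2 input libraries of unprecipitated chromatin came from the cortical midline of wild type C57/Bl6 mouse embryos at embryonic day 14.5. The Rcor2 antibody was from ProteinTech and the rabbit IgG, a mock antibody, from Cell Signalling Technologies. The other 4 libraries are RNA-seq of the same tissue and age on the C57/Bl6 strain, 2 from Rcor2f/f embryos, the controls with floxed alleles, and 2 from Rcor2f/f/EMX1-iCRE conditional knockouts (cKO). Emx1 is active in progenitors of the dorsal telencephalon, and cells of other origin in the dissection lie outside that domain. ChIP from tissue without Rcor2 was not analysed here. Nothing in the labels says that replicates came from separate animals or litters, and every p-value below measures only the spread between these libraries.

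Rcor2 belongs to the CoREST proteins, which hold the lysine demethylase Kdm1a (LSD1) and the deacetylases Hdac1 and Hdac2 together in complexes that remove active marks from histones. DNA-binding repressors such as Rest recruit these complexes to genes, and in the developing cortex Rcor2 is known from neural progenitors. A mock precipitation with IgG measures what sticks to beads and antibody without a target, whereas input measures how much of each region was in the sonicated chromatin.

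Some promoter windows under the peaks are printed first, because the results below turn on the heights at these places. Each is the RefSeq window from 250 bases before to 50 bases after a gene's start (build GRCm38.p6, the assembly of mm10), written 5′ to 3′ on the gene's strand, and capitals mark the bases that lie inside the peak. The promoter peak with the highest Rcor2 height is that of 1110001J03Rik (Fmc1 in RefSeq, an assembly factor of mitochondrial ATP synthase), chr6:38534611-38534910, plus strand. Ppp4r2, a regulatory subunit of protein phosphatase 4, has the highest Rcor2 coverage among 7 peaks with IgG listed at 0 in both libraries, chr6:100833388-100833687, plus strand. Mcm3, a subunit of the replicative helicase (chr1:20820263-20820562, minus strand), and Rps7, a protein of the small ribosomal subunit (chr12:28635904-28636203, minus strand), have the peaks of the highest ratio among the cell cycle and ribosomal genes described below.

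1110001J03Rik: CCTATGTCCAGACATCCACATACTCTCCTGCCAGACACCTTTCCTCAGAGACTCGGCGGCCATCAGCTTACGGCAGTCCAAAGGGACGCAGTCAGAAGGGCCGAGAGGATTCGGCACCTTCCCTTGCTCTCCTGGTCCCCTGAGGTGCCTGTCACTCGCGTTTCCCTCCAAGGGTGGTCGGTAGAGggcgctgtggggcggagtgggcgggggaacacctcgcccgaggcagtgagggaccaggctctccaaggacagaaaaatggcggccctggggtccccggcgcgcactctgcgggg
Ppp4r2: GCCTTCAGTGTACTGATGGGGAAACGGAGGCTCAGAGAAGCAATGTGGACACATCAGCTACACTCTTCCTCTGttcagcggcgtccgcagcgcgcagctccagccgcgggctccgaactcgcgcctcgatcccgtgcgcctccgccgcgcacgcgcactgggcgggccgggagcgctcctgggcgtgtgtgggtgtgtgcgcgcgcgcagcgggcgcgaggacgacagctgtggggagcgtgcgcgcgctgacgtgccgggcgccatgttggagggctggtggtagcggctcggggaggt
Mcm3: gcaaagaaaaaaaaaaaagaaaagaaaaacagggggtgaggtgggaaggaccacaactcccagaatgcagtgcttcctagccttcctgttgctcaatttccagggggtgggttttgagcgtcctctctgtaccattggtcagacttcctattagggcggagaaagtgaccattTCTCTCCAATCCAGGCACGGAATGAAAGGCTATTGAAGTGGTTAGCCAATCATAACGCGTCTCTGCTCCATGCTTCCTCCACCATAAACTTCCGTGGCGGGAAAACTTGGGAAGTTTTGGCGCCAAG
Rps7: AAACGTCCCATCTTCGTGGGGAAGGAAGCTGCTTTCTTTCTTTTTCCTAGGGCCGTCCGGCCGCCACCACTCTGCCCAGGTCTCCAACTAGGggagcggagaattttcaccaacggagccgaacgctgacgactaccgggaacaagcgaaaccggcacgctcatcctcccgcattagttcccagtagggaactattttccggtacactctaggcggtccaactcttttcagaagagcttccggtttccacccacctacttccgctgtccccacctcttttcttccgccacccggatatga

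The peak of 1110001J03Rik covered 186 bases of its window and had heights of 50 and 80 in Rcor2 replicates 1 and 2, 6 and 8 in the IgG libraries and 28 and 30 in input. The peak of Ppp4r2 covered 73 bases and had heights of 10 and 18 in Rcor2, 0 and 0 in IgG and 13 and 16 in input. Mcm3 had 13 and 29 in Rcor2, 4 and 3 in IgG and 20 and 21 in input, with 127 bases of its window in the peak. Both Rcor2 libraries were above both IgG libraries at each of these peaks. Relative to input they differed: the 1110001J03Rik peak was above both input libraries in both Rcor2 libraries, and the Ppp4r2 peak was above both in replicate 2 only. Rps7 had 19 and 19 in Rcor2, 2 and 1 in IgG and 15 and 16 in input, with 92 bases in the peak.

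A height is the depth of read coverage at a peak, in reads, as deposited; the values are whole numbers and show no scaling. Over the 6995 peaks the median height was 13 in Rcor2 replicate 1 and 19 in replicate 2, against 4 and 3 in the IgG libraries and 13 and 12 in input. Rcor2 replicate 2 was 1.45 times replicate 1 at the median peak, and its lowest height was 11, where that of replicate 1 was 4. IgG was listed at 0 at 108 peaks in replicate 1 and at 228 in replicate 2. Library totals were not analysed here, so a part of each difference between libraries may be depth, and this part was not tested.

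The mean Rcor2 height was 3.89 times the mean IgG height at the median peak (log2 1.96 with 0.5 added to both), and a range from 3.17 to 4.88 times held the middle of the peaks, between their quartiles. Every Rcor2 height was above every IgG height at 6919 of 6995 peaks, 98.9%. In the limma comparison of the heights as deposited, 6613 peaks (94.5%) passed an adjusted p of 0.05, all with Rcor2 higher. Without IgG replicate 1, 3852 peaks passed, and without any 1 of the other 3 libraries 0 did. The peaks had been called on this contrast, so both shares describe the choice of peaks and nothing was read from them. Between libraries of the same number the median log2 ratio was 1.58 in replicate 1 and 2.40 in replicate 2. In the authors' deposited table the fold enrichment over IgG had a median of 4 and ran from 1.97 to 16.0, and the −log10 q ran from 1.41 to 78.4. At 5453 peaks (78.0%) the deposited pileup of Rcor2 plus 1, divided by this fold, was 6.005 within 0.005. There the fold follows the pileup and not the IgG height at each peak. Its median is thus not the same measure as the 3.89 above.

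**Figure D1:**
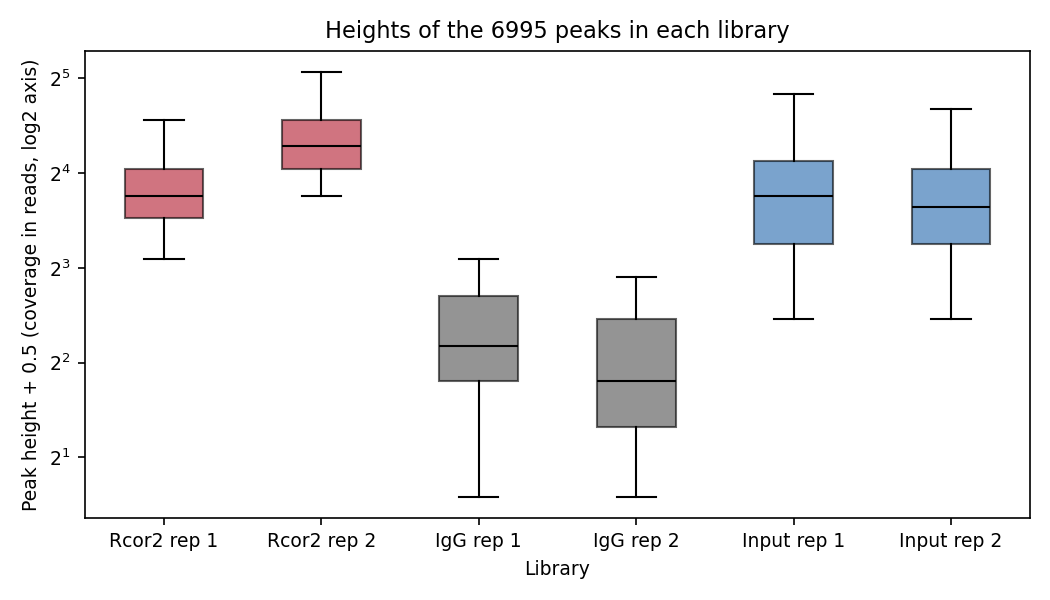
Height of the 6995 peaks in each library, in reads of coverage with 0.5 added, on a log2 axis; boxes span the quartiles, lines inside them are medians and whiskers run from the 5th to the 95th percentile. The Rcor2 boxes (medians 13 and 19) lie above the IgG boxes (4 and 3) and near the input boxes (13 and 12).

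The level of the IgG libraries was low beside input as well: IgG over input had a median log2 of -1.58, which is 0.333 times, and Rcor2 over input a median log2 of 0.42, which is 1.33 times. Both Rcor2 heights were above both input heights at 2819 peaks (40.3%). A ratio of 3.89 over IgG thus stood beside one of 1.33 over input at the typical peak, on unscaled heights in both cases.

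The Rcor2 replicates shared more of their highest peaks with each other than with any other library, and the IgG replicates did not. Of the 350 highest peaks of each library (the top 5%), Rcor2 replicates 1 and 2 shared 208 (59.4%), and IgG replicates 1 and 2 shared 55 (15.7%), where independent ranks would share 17.5 peaks. Across the 6995 peaks, Pearson's r was 0.61 and Spearman's rho 0.30 between the Rcor2 libraries, and 0.18 and 0.12 between the IgG libraries. The input libraries had r = 0.78 and rho = 0.71 and shared 204 of their 350 highest peaks. Each Rcor2 library shared 57 to 61 of its 350 highest peaks with each IgG library and 39 to 58 with each input library, and each IgG library shared 65 to 76 with each input library. All of these numbers, the 55 of the IgG pair included, were above 17.5. Peaks tied in height were ordered by peak name in the same way in every library, which can raise the sharing. This matters most for the low IgG heights, so 17.5 is not an exact expectation and nothing is read from the excess over it. These are descriptions over peaks of the same libraries, which share the peak calling, peak length and local sequence. IgG heights are whole numbers of a few reads, which bounds how closely their ranks can match.

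**Figure D2:**
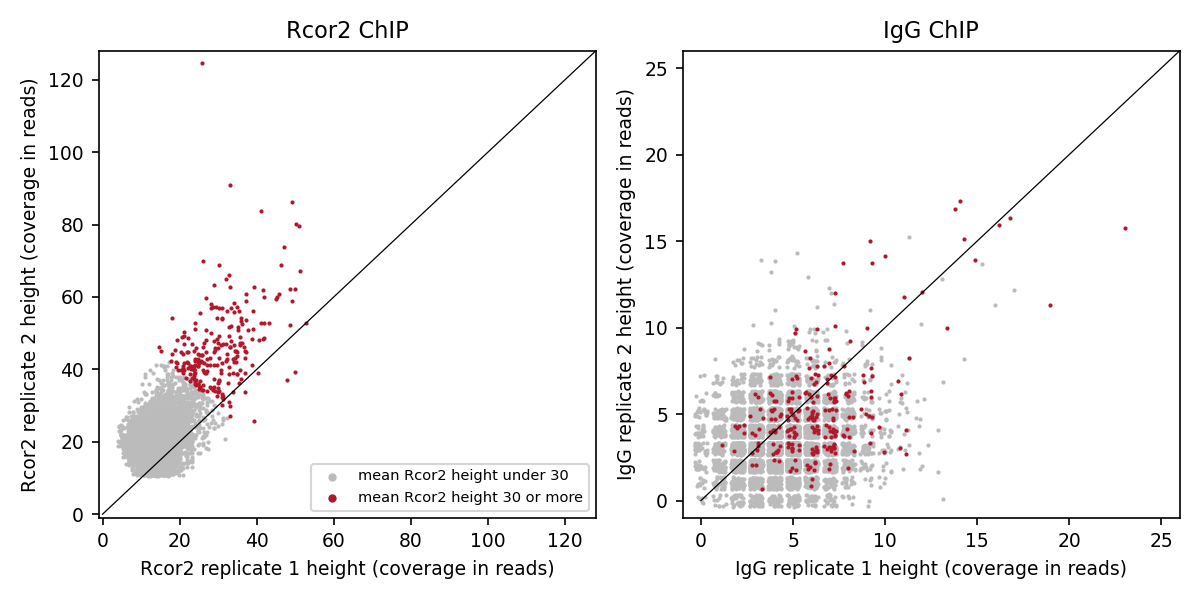
Height in replicate 1 (x) against replicate 2 (y), in reads of coverage, for the Rcor2 libraries (left) and the IgG libraries (right), 1 point per peak with a small random shift so that whole numbers do not hide each other; the line marks equal heights. The 237 peaks with a mean Rcor2 height of 30 or more are in red. They were chosen by the Rcor2 heights plotted, so their high place in the left panel follows in part from that choice. Their IgG heights are mostly under 10.

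To ask which peaks stood apart from the typical ratio, each library was centred on its own median and the 2 Rcor2 libraries were compared with the 2 IgG libraries again. No peak was called above or below the typical ratio (0 of 6995, 0%; limma, smallest adjusted p 0.832). At an unadjusted p under 0.05, 173 peaks were above and 227 below, where 349.75 in all would fall under that threshold without any difference. Without IgG replicate 1, 330 peaks were called above and 75 below, and without IgG replicate 2, 142 and 6. Without either Rcor2 replicate 0 were called. The ratios of single peaks in the following paragraphs are therefore given as values, and no peak is said to differ from another.

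The highest peaks were higher over both IgG and input. The peaks were divided by mean Rcor2 height at 15, 20 and 30, limits chosen after the values were seen. The 2587 peaks under 15 had a median ratio of 3.57 times IgG and 1.17 times input, and the 237 peaks of 30 or more (3.39% of peaks) had 6.5 times IgG and 2.17 times input. In these 237 peaks the median heights were 30 and 44 in Rcor2, 6 and 5 in IgG and 18 and 17 in input, and both Rcor2 libraries were above both input libraries at 196 of them (82.7%), against 28.4% of peaks under 15. The division uses the Rcor2 heights, so the rise of the ratio with height follows in part from how the peaks were divided. The high peaks were also longer, with a median of 542 against 180 bases. By location, 71 of the 237 lay at promoters (95% Clopper-Pearson interval 24.2 to 36.2%, counting error only) and 60 distal (19.9 to 31.4%), against 21.8% and 16.1% of the peaks under 15.

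Among the 10 highest Rcor2 peaks, 4 were distal, assigned to Lep (leptin), Trim27 (a ubiquitin ligase), Kif11 (the mitotic kinesin Eg5) and Fam222a. Lep had heights of 51 and 80 in Rcor2, 10 and 3 in IgG and 17 and 20 in input (chr6:29036922-29037571). Kif11 had 51 and 67 in Rcor2, 9 and 10 in IgG and 23 and 21 in input (chr19:37362762-37363769). Trim27 had 47 and 74 in Rcor2, 7 and 7 in IgG and 19 and 16 in input. At Lep, Kif11 and Trim27 every Rcor2 height was more than 4 times every IgG height. H2afy2, which encodes the histone variant macroH2A2, had a promoter peak of 46 and 69 in Rcor2, 7 and 6 in IgG and 16 and 19 in input. Lrp8, a receptor for reelin, had a gene body peak of 41 and 84 in Rcor2, 7 and 4 in IgG and 26 and 23 in input. The single highest peak, intergenic at chr10:72297119-72297437, rested on replicate 2: its heights were 26 and 125 in Rcor2, 12 and 12 in IgG and 15 and 14 in input. Of the others, 1 lay in the gene body of Scfd2, 1 at the promoter of 1110001J03Rik and 1 between genes.

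The highest ratios came from peaks with almost no IgG coverage rather than from high Rcor2 coverage. At 7 peaks both IgG libraries were listed at 0, so no fold is given for them. They were the promoter peaks of Ppp4r2, Sec16b, Mir1191b, Hdac2 and 2610316D01Rik/Pcdh10, a distal peak of B930092H01Rik and an intergenic peak on chromosome 15. Hdac2, the deacetylase of the CoREST complex itself, had 9 and 16 in Rcor2 and 17 and 16 in input. Across the 7 peaks the mean Rcor2 height was 12.5 to 14.0. On the autosomes the median of this mean was 15.5 to 16.5 per chromosome.

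At the other end, the heights of 76 peaks overlapped between Rcor2 and IgG, and in each it was Rcor2 replicate 1 that was at or below an IgG height while replicate 2 was above both. The lowest ratio was in the gene body of Hs2st1, a heparan sulfate sulfotransferase, with 10 and 12 in Rcor2, 7 and 10 in IgG and 29 and 26 in input. Dars, an aspartyl-tRNA synthetase, had a distal peak of 9 and 17 in Rcor2, 10 and 5 in IgG and 30 and 20 in input. Both had input above either antibody. The highest IgG coverage was in the gene body of Col23a1, a transmembrane collagen, with 23 and 16 in IgG beside 49 and 62 in Rcor2 and 37 and 36 in input. Map2k6 (28 and 41 in Rcor2, 16 and 16 in IgG) and Wdr76 (43 and 53 in Rcor2, 14 and 17 in IgG) followed among the gene body peaks. These peaks were high in all 6 libraries.

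The authors placed 1619 peaks (23.1%) at promoters, 2515 (36.0%) in gene bodies, 1219 (17.4%) distal to a gene and 1642 (23.5%) between genes. Where the assigned gene had a start site in the RefSeq table, 97.8% of promoter summits lay within 2500 bp of it, and 88.0% of distal summits lay upstream of it and within 50000 bp. The median log2 Rcor2 over IgG ratio was 2.03 at promoter, 1.95 at gene body, 1.96 at distal and 1.95 at intergenic peaks, and 98.4 to 99.1% of the peaks of each class had every Rcor2 height above every IgG height. A neighbouring peak within 5000 bp was found for 17.9% of promoter, 30.8% of gene body, 37.0% of distal and 29.4% of intergenic peaks.

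Promoter and gene body peaks were compared inside each library, which needs no scaling for depth. The median height was the same in both classes in each of the 4 Rcor2 and IgG libraries, so the difference of medians did not separate the antibodies (exact permutation test over 4 libraries, two-sided, p = 1). Heights are whole numbers and the peaks of both classes had passed the same calling, so equal medians can follow from these alone. The test of medians therefore cannot decide whether the classes differ. The mean height of promoter peaks was 1.02 and 1.07 times that of gene body peaks in the Rcor2 libraries, 0.961 and 1.01 times in the IgG libraries and 1.25 and 1.23 times in input. For mean log2 heights the Rcor2 libraries exceeded the IgG libraries by 0.077 (exact permutation test, two-sided, p = 0.333, the smallest that 2 against 2 libraries allow). Promoter peaks had more input coverage, with medians of 15 and 14 against 12 and 11 in gene bodies. Accordingly both Rcor2 heights were above both input heights at 30.4% of promoter and 42.4% of gene body peaks, while the ratio over IgG was nearly level between them.

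**Figure D3:**
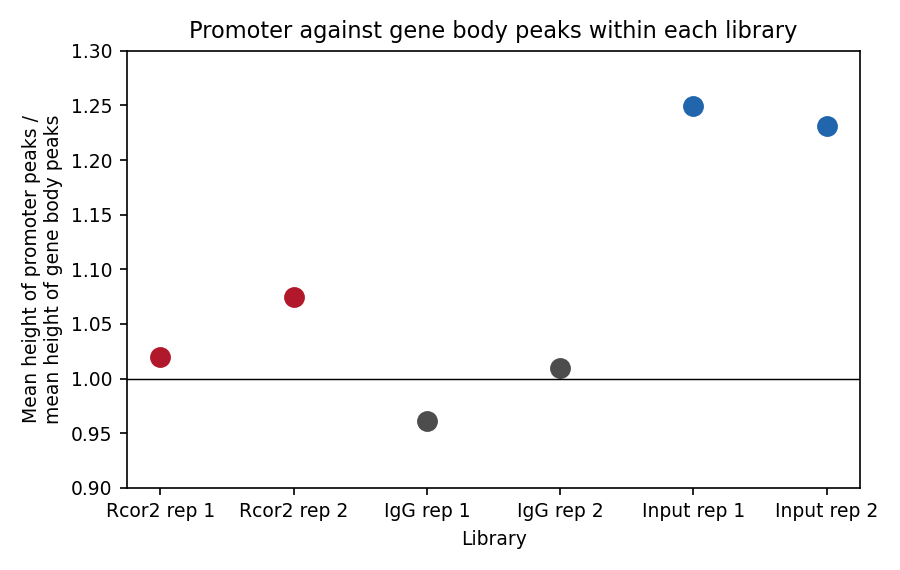
Mean height of the 1619 promoter peaks divided by that of the 2515 gene body peaks, 1 point per library, with a line at equal heights. The Rcor2 points (1.02 and 1.07) and IgG points (0.961 and 1.01) lie near the line and the input points (1.25 and 1.23) above it.

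Among promoter windows that overlap a peak, input heights moved with CpG number, and Rcor2 and IgG heights hardly did. In the RefSeq table, 620 of 32851 promoter windows overlapped a peak, and these had a median of 18 CpG dinucleotides and a GC content of 57.7%, against 7 and 52.7% in the other windows. From the 208 windows with the fewest CpGs (0 to 13) to the 191 with the most (24 to 47), median input heights went from 16 and 14 to 22 and 19. Over the same groups Rcor2 medians went from 14 and 20 to 14 and 21, and IgG medians were 4 and 3 in both. Spearman's rho between CpG number and height over the 620 windows was 0.34 in each input library, -0.04 and 0.00 in Rcor2 and -0.10 and 0.06 in IgG. These values describe windows of the same libraries. A peak that overlaps several windows gives its heights to each, so the 620 windows, here and in the motif shares below, are not 620 separate peaks. Rcor2 heights were read only where a peak had been called on them, and IgG heights are a few reads. Both limit how far these heights can vary with CpG number, so no absence of a relation is read from them.

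The cyclic AMP response element TGACGTCA, a palindrome and so the same on both strands, was in 6.29% of the 620 windows with a peak and in 1.79% of all 32851. Among windows of at least the median CpG number of those with a peak, it was in 9.63% with a peak and 3.52% without. The Nrf1 letters GCGCATGCG were in 4.84% against 1.75% of all windows, and among CpG-rich windows in 7.14% with a peak and 4.22% without. The Ets motif CCGGAAG was in 17.4% against 8.86%, but among CpG-rich windows in 21.4% with a peak and 19.2% without. The GC box GGGCGG was in 52.3% against 35.7%, but among CpG-rich windows in 73.0% with a peak and 79.8% without. Of the RE1 element of Rest, the left arm TTCAGCACC was in 0 of the 620 windows and in 0.371% of all, and the right arm GGACAGCGC in 5 of the 620 (0.806%) and in 0.405% of all. The Gfi1 letters AATCACNGC were in 0.806% against 0.919%, CCAAT in 41.3% against 37.4%, the E-box CAGCTG in 13.7% against 16.3% and the AP-1 motif TGANTCA in 4.19% against 7.81%. Both strands were searched, exact letters only, and a match is a description of the sequence.

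The 2 windows below hold TGACGTCA, in capitals, and had the highest mean Rcor2 height among such windows; they were chosen after their values were seen. Cdc42, a small GTPase of cell polarity, is at chr4:137357710-137358009, minus strand, and Gm39084, a predicted gene, at chr7:123098189-123098488, minus strand.

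Cdc42: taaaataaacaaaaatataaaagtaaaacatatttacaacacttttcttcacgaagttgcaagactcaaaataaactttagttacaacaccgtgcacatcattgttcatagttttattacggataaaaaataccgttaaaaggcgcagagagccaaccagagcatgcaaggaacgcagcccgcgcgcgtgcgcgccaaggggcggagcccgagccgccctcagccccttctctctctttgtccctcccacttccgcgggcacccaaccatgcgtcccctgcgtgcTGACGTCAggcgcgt
Gm39084: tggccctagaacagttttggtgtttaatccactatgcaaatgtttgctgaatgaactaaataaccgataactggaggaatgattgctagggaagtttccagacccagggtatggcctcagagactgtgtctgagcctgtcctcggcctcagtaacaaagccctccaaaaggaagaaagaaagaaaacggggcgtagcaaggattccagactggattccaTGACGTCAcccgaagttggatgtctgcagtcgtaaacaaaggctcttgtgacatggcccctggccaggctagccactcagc

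The peak at the Cdc42 window had heights of 21 and 35 in Rcor2, 6 and 4 in IgG and 10 and 9 in input. That at Gm39084 had 18 and 31 in Rcor2, 3 and 4 in IgG and 10 and 12 in input. At both, every Rcor2 height was above every IgG and input height.

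Peaks covered every chromosome, thinly on X and Y. The 19 autosomes held 186 to 591 peaks each, 21.2 to 48.0 per 100 protein-coding genes, with median log2 Rcor2 over IgG ratios of 1.87 to 2.00. Chromosome X held 33 peaks, 0.472% of all beside 4.41% of protein-coding genes, which is 3.42 per 100 genes. Its median heights were 12 and 20 in Rcor2, 4 and 3 in IgG and 9 and 9 in input, so the few peaks there were of ordinary height over IgG. Input coverage of X outside the peaks was not analysed here, and the embryos' sex was not used here. Chromosome Y held 6 peaks, all assigned to Erdr1, a gene of the pseudoautosomal region. Among them was a peak of 28 and 58 in Rcor2, 14 and 17 in IgG and 31 and 47 in input, high in every library.

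**Figure D4:**
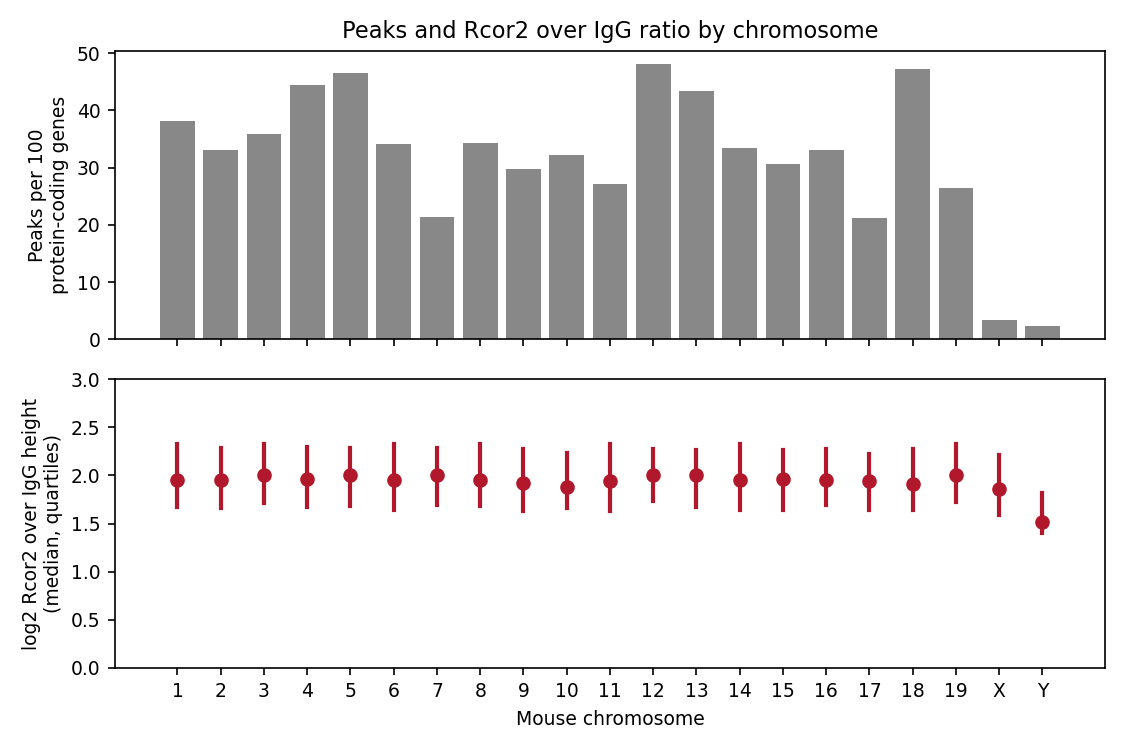
Peaks per 100 protein-coding genes (top, bars) and median log2 Rcor2 over IgG height with its quartiles (bottom, points and lines) for each mouse chromosome. Autosomes have 21.2 to 48.0 peaks per 100 genes and X has 3.42, while the median ratios of the autosomes stay between 1.87 and 2.00.

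The peaks named 3376 gene labels, and 5353 of 6995 peaks carried one. Among all genes of the RNA table, 19.4% had at least 1 peak. Gene lists of the tissue were read against that share, and long genes can hold more peaks by their length alone. Genes with more RNA also had a peak more often. At mean counts of 10 to under 300, 613 tested genes had a peak and 3789 had none. At 1500 or more, 1386 had a peak and 3604 had none. The share of 19.4% is matched to the lists in neither length nor count. Unless said otherwise, the peak shown for a gene of a list is its peak of the highest ratio over IgG, and other peaks of the same gene may stand otherwise against input. Gene body peaks are most of the 104 peaks at axon guidance genes (84), whose median span was 152 kb, against 24.4 kb for all tested genes.

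Of 23 genes of the CoREST-LSD1 complex and Rest, 9 had a peak. Zmym2, a zinc finger partner of the complex, had a gene body peak of 23 and 30 in Rcor2, 5 and 2 in IgG and 5 and 5 in input. Gse1, another partner, had a gene body peak of 19 and 26 in Rcor2, 4 and 3 in IgG and 21 and 22 in input. The Zmym2 peak was well above input and the Gse1 peak level with it. No peak was assigned to Rcor2. Of 45 genes that Rest represses outside neurons, 12 had a peak (26.7%), among them Celf4, a neuronal RNA-binding protein, whose gene body peak had 9 and 24 in Rcor2 and 1 and 1 in IgG. Atp2b2, a calcium pump, had 16 and 22 in Rcor2 and 3 and 3 in IgG, and Syt1, the calcium sensor of synaptic vesicle release, 12 and 22 against 3 and 3. Their input heights were 10 to 22, and their Rcor2 heights overlapped them.

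Among neural stem cell genes, 21 of 30 radial glia genes had a peak, 59 peaks in all, and their median span was 16.1 kb. Of the 59 peaks 35 lay in gene bodies, and Nfia (14) and Nfib (8), another midline glia factor, held many of the 59. Hes5, a Notch target that holds cells in the progenitor state, had 6 distal peaks. The highest by Rcor2 had 35 and 57 in Rcor2, 11 and 3 in IgG and 31 and 21 in input, and the one of the highest ratio over IgG had 11 and 21 in Rcor2, 1 and 1 in IgG and 15 and 12 in input. Notch1, its receptor, had a gene body peak of 27 and 51 in Rcor2, 4 and 6 in IgG and 28 and 20 in input. Nfia, a factor of midline glia, had 14 gene body peaks, and the one of the highest ratio had 14 and 30 in Rcor2, 2 and 1 in IgG and 11 and 7 in input. Both Rcor2 heights were above both input heights at the highest Hes5 peak and at the Nfia peak, and at the Notch1 peak in replicate 2 only. Of 20 proneural and intermediate progenitor genes, 8 had a peak. The Notch ligand Dll1 had a distal peak of 8 and 17 in Rcor2, 2 and 1 in IgG and 11 and 9 in input, and the proneural factor Neurog1 a promoter peak of 16 and 17 in Rcor2, 3 and 2 in IgG and 18 and 17 in input.

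Of 28 genes of projection neuron identity, 21 had a peak, with a median span of 96.5 kb. Neurod2, a neuronal differentiation factor, had a distal peak of 17 and 25 in Rcor2, 2 and 0 in IgG and 14 and 19 in input. Bcl11b (Ctip2), a factor of subcortical projection neurons, had a gene body peak of 31 and 32 in Rcor2, 6 and 1 in IgG and 17 and 19 in input. Fezf2, which specifies deep-layer neurons, had a distal peak of 14 and 19 in Rcor2, 1 and 1 in IgG and 4 and 5 in input. These Bcl11b and Fezf2 peaks were above input in both Rcor2 libraries and this Neurod2 peak was not. Of 50 axon guidance genes, 33 had a peak, among them Draxin, a midline repellent, with 22 and 42 in Rcor2, 2 and 4 in IgG and 22 and 18 in input. Dscam, a netrin receptor, had a gene body peak of 9 and 19 in Rcor2, 2 and 0 in IgG and 7 and 7 in input, and Slit3, a ligand of Robo receptors, one of 12 and 14, 2 and 0, and 6 and 14 in the same order.

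The highest peak of any of the lists was a distal peak assigned to Msx1, a member of the list of cortical hem, Wnt and Bmp genes. Of 28 cortical hem, Wnt and Bmp genes, 14 had a peak. Msx1, a target of Bmp signalling, had a distal peak of 53 and 53 in Rcor2, 6 and 6 in IgG and 21 and 14 in input (chr5:37858047-37858891), and Wnt7b, a Wnt ligand, a distal peak of 29 and 57 in Rcor2, 5 and 3 in IgG and 19 and 16 in input. Both were above IgG and input in every pair of libraries. Of 20 Sonic hedgehog pathway genes, 11 had a peak. Cdon, a hedgehog co-receptor, had a distal peak of 35 and 39 in Rcor2, 8 and 4 in IgG and 20 and 19 in input, and Hhip, a hedgehog-binding inhibitor, a gene body peak of 25 and 25 in Rcor2, 8 and 2 in IgG and 7 and 9 in input.

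Cell cycle genes were the list with the smallest share of peaks, 6 of 38 (15.8%). E2f1, a transcription factor of S phase entry, had a promoter peak of 14 and 13 in Rcor2, 1 and 5 in IgG and 19 and 18 in input, and Aurkb, a mitotic kinase, a distal peak of 27 and 48 in Rcor2, 7 and 12 in IgG and 28 and 22 in input. Of 56 replication-dependent histone genes, 20 had a peak, and their 22 peaks had a median log2 ratio of 1.68 with a median IgG height of 5.5, against 1.96 over all peaks. The peak distal to Hist1h2ai had 22 and 32 in Rcor2, 6 and 5 in IgG and 13 and 9 in input. Histone genes are close copies, so the gene and the reads of single members are uncertain. Of 41 ribosomal protein and translation genes, 12 had a peak (29.3%), among them Rps14 with a distal peak of 31 and 39 in Rcor2, 7 and 3 in IgG and 29 and 17 in input.

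RNA of the peaks' genes was read in the cKO, a measurement that the peak calling did not use. Rcor2 itself had 7901 and 7257 normalized counts in control midline, 6363 and 6840 in the cKO libraries (log2 -0.20, limma adjusted p 0.0541). Both libraries labelled cKO were lower than both controls, but the difference did not pass, so the targeted gene's own RNA does not establish the deletion. The floxed exons were not examined apart from the rest of the gene. The markers of dorsal telencephalon had 1902 to 13798 normalized counts in the controls and those of the medial edge and hem 282 to 4108, while 4 ventral and interneuron markers had 0 to 806 in the controls and 0.979 to 464 in the cKO. Of these, the interneuron factor Lhx6 had 806 and 795 in control libraries against 375 and 464 in cKO libraries, and Gad1, which makes the transmitter GABA, 246 and 292 against 155 and 157. Dlx2 was lower in both cKO libraries as well, and the ventral factor Nkx2-1 was at 0 to 9.73 in every library. Alas2, the 1 blood marker in the table, had 665 and 863 against 269 and 372. Markers of endothelium had 574 to 1495 in the controls and 451 to 1494 in the cKO, and those of microglia 149 to 531 and 174 to 487. Among markers of meninges and mesenchyme, the collagen Col1a1 had 355 and 258 against 2442 and 611, and Dcn 285 and 332 against 694 and 411. Foxc1 had 102 and 96.2 against 141 and 82.2, so its control and cKO libraries overlapped. The part of these cell types in the RNA results was not tested. In bulk tissue, fewer cells of a type and less RNA per cell cannot be told apart.

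The RNA calls were counted for genes with and without a peak. Of 14324 genes tested with limma, 882 rose (6.16%) and 1188 fell (8.29%), 14.5% in all at an adjusted p under 0.05. Of the 2987 tested genes with a peak, 317 rose (10.6%) and 300 fell (10.04%), against 564 (4.98%) and 883 (7.80%) of 11315 without. Of the 1225 tested genes with a promoter peak and no other, 110 rose (8.98%) and 62 fell (5.06%). Among 1506 genes with a promoter peak 163 rose (10.8%) and 86 fell (5.71%), among 628 with a distal peak 82 rose (13.1%) and 56 fell (8.92%), and among 1261 with a gene body peak 142 rose (11.3%) and 194 fell (15.4%). Of the 160 tested genes of peaks of height 30 or more, 22 rose and 6 fell. A gene with peaks of several classes is counted in each, and no test of these shares was made.

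**Figure D5:**
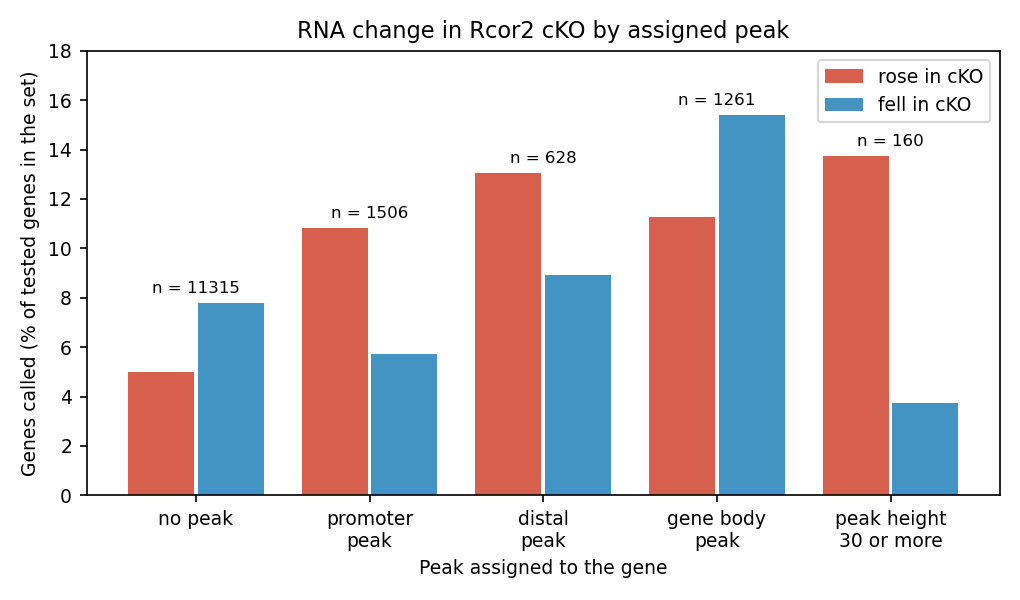
Share of tested genes called as risen (red) or fallen (blue) in the cKO at a limma adjusted p under 0.05, for genes without a peak and with peaks of each kind; n is the number of tested genes. The share that rose is 4.98% without a peak and 10.8 to 13.8% in the sets with one, and the share that fell is highest for gene body peaks (15.4%).

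The share that fell moved with gene length and the share that rose less so. Genes with a gene body peak spanned a median of 121 kb. Among genes of 100 kb or more, 20.5% with a gene body peak and 17.99% without any peak fell. In each of 3 bins of span (under 20 kb, 20 to 100 kb, 100 kb or more), 8.40 to 14.2% of genes with a promoter peak and 10.6 to 15.8% with a gene body peak rose, against 4.25 to 5.64% without a peak. In 3 bins of mean count, 6.20, 9.41 and 13.4% of genes with a peak rose, against 3.38, 5.33 and 6.30% without. In the same bins 2.28, 9.11 and 14.1% with a peak fell, against 3.96, 7.55 and 12.1% without. The numbers of calls depended on single libraries: without control replicate 1, 25 genes with a peak rose and 37 fell, and without control replicate 2, 28 and 32. They were 217 and 229 without cKO replicate 1 and 510 and 440 without cKO replicate 2. Each of these fits left a single library in a group, so no share with or without a peak is read from them.

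Among progenitor genes with a peak more rose than fell, and among neuronal genes more fell than rose, as also among members without a peak. Of the 21 radial glia genes with a peak 10 rose and 0 fell, and of the 9 without 6 rose and 1 fell. Notch1 had 12699 and 13487 normalized counts in control libraries against 16219 and 15468 in cKO libraries, which did not overlap (log2 0.28, SE 0.050, limma adjusted p 0.0115). Hes5 went from 1800.2 and 1890 to 2296 and 2275 (log2 0.31, SE 0.052, limma adjusted p 0.00907). Dll1 rose by 0.38, Neurog1 by 0.72, Cdon by 0.30, Lfng, a modifier of Notch, by 0.31 and Mcm3 by 0.34 on the log2 scale, all with limma adjusted p-values of 0.00690 to 0.00881. E2f1 (log2 0.37), Aurkb (log2 0.25) and Kif11 (log2 0.21) rose as well, and of the 6 cell cycle genes with a peak 5 rose, beside 18 of 32 without one. Wdr76 rose by 0.39. Hist1h2ai rose by 0.35, and 10 of 17 tested histone genes with a peak rose, beside 16 of 35 without. Of the other lists, 6 of 14 hem, Wnt and Bmp genes with a peak rose and 4 of 14 without one, 4 of 11 hedgehog genes with a peak and 2 of 8 without, and 3 of 8 proneural genes with a peak and 4 of 12 without, where 6.16% of all tested genes rose. All 6 markers of the medial edge and hem were higher in both cKO libraries than in both controls, and their part in these counts was not tested.

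Of the 12 Rest-repressed genes with a peak 9 fell, and of the 32 tested without one 22 fell. Celf4 fell by 0.38, Atp2b2 by 0.25 and Syt1 by 0.40 on the log2 scale. Of the 21 projection neuron genes with a peak 12 fell and 0 rose, and 5 of 7 without one fell. Bcl11b went from 11893 and 11995 normalized counts in the controls to 7827 and 9664 in the cKO (log2 -0.46, SE 0.086, limma adjusted p 0.0127). Neurod6 fell by 0.42 and Neurod2 by 0.36. Of the 33 axon guidance genes with a peak 10 fell and 4 rose, and of the 17 without one 4 fell and 1 rose, where 8.29% of all tested genes fell. Lhx6, Gad1, Dlx2 and Alas2, markers of interneurons and blood, were lower in both cKO libraries too, and their part in the falls of neuronal genes was not tested. Dscam went from 1896 and 1879.9 to 1161 and 1281 (log2 -0.63, SE 0.063, limma adjusted p 0.00387), and Slit3 fell by 0.33.

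RNA changes were called for genes of the highest peaks at a share near that of all genes. Msx1, with 53 and 53 in Rcor2, had 97.5 and 112 normalized counts in control libraries against 94.6 and 109 in cKO libraries (log2 -0.05, limma adjusted p 0.885). Wnt7b had a log2 difference of -0.08, Lrp8 of 0.11, H2afy2 of 0.08, Trim27 of 0.10 and Scfd2 of -0.09, and none passed. Of the 6 genes of the 10 highest peaks in the RNA table, Kif11 was the 1 that passed. Of the 160 tested genes of peaks of height 30 or more 17.5% passed, beside 14.5% of all tested genes and 20.7% of those with any peak. By direction 13.8% rose and 3.75% fell, beside 6.16% and 8.29% of all tested genes. Among those with any peak 10.6% rose and 10.04% fell. At promoter peaks of that height 8 of 67 tested genes rose and 0 fell. No test of these shares was made. Of the 12 ribosomal and translation genes with a peak 0 rose and 0 fell, with log2 differences of 0.03 at Rps7 and -0.12 at Rps14. Without either control in turn, 19 of the 20 named genes that passed no longer did, and Dscam still passed.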

How the data were processed

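The authors' deposited peak table gives a height (signal, coverage in reads) per peak and library. Its pileup, fold enrichment (ratio) and, read by place and range because their headers are spoiled, −log10 p and −log10 q come from the authors' peak calling of Rcor2 against IgG, per the file headers. The sources used here do not give the peak caller's settings or the rules for location classes and assigned genes. The authors' deposited RNA table gives normalized counts (signal); each of its values (100%) was a whole multiple of its library's step within 0.01, and the recovered totals were 27674987 to 30270598 reads. The authors' deposited log2 fold changes, test score and p-values beside them, per the file headers, were not used. HISAT2 2.1.0, Trim Galore and mm10 are named, for no given step, per the submitters' processing notes. Heights had 0.5 added before log2. Because heights are coverage, limma-trend (limma 3.58.1, R 4.3.3) was used, two-sided, with Benjamini-Hochberg adjustment over all peaks, as deposited and centred on each library's median. RNA was fitted likewise on log2(normalized count + 1) over genes with a mean of at least 10. edgeR 4.0.16 and DESeq2 1.42.0 on recovered reads were alternatives. Named peaks were the 10 highest by Rcor2 height and by ratio, the 5 lowest by ratio, the 5 highest by IgG and up to 4 per list of 11 lists, with Rcor2 itself. The scripts were tested on simulated data. Peaks, lists and members were chosen with earlier results of these data known.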

Additional observations from a re-analysis of the deposited data

How the results depend on the processing

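With 2 libraries a group and heights of a few reads in IgG, single peaks cannot be ranked by ratio at this depth. With 5 added to heights in place of 0.5 the median log2 ratio was 1.26. Peaks with every Rcor2 height above every IgG height numbered 3410 among those with a mean height of at least 10 and 3123 among those with the authors' fold enrichment of at least 4, since fewer peaks were counted. At 78.0% of peaks that fold follows the pileup of Rcor2, so there its minimum selects on pileup. Calls of Rcor2 over IgG numbered 3378 with the height minimum and 0 after centring. Leaving out each library in turn, the median log2 ratio ran from 1.66 to 2.20, separate peaks from 6919 to 6995, and calls from 0 to 3852. Calls above the typical ratio ran from 0 to 330 and below it from 0 to 75.

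The promoter against gene body difference, Rcor2 minus IgG, was 0.077 with means, 0.24 with the fold enrichment minimum and -0.015 with 1 peak per gene and class, against 0 as reported and 0 without each library in turn. The difference of median log2 ratios, 0.080 as reported, was 0.055 with 5 added, 0.11 with the fold enrichment minimum, 0.061 with 1 peak per gene and class, and 0.044 to 0.099 without each library; the cause was not tested.

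With peaks of fold enrichment of at least 4 only, fewer genes were counted: 188 rose and 165 fell for any peak, 79 and 34 for promoter, 85 and 108 for gene body and 44 and 27 for distal peaks. Without each library in turn, genes with any peak that rose ran from 25 to 510 and that fell from 32 to 440, promoter from 15 to 256 and 6 to 158, gene body from 8 to 245 and 26 to 242, and distal from 6 to 116 and 4 to 89. Of the named genes, E2f1 and Aurkb did not pass without cKO replicate 1, and Slit3 not with DESeq2 (adjusted p 0.0586). No value changed direction except the promoter difference with 1 peak per gene and class, whose value as reported is 0.

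Same-numbered Rcor2 and IgG libraries did not deviate together (correlation of deviations 0.0031 over peaks), and the RNA libraries had 0.242; with 2 pairs they share only a number. With a replicate block 6466 peaks were called, 0 departed from the typical ratio, and 329 genes with a peak rose and 298 fell. Within replicate numbers the median log2 ratio was 1.99, 6945 peaks were separate and the difference of promoter and gene body ratios was 0.085.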
